A study of Homo sapiens with 8 samples.

Results

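The 10 genes described here encode chains of the receptors for interferons and for the cytokines of lymphocytes: IFNAR1, IFNAR2, IFNGR1, IFNGR2, IL10RB, IL2RG, IL7R, IL4R, IL21R and IL27RA. They were taken by symbol from a table of 13453 genes, and all 10 had a row there. IFNAR2 and IL10RB were chosen by their listed zeros in CBAP-expressing cells, and the other 8 by name, as receptor chains of the same family, with their FPKM already known. RNA-seq was done on Jurkat cells, an established human T-ALL line, in 4 conditions of 2 libraries each. The sh-Ctrl and sh-CBAP cells are stable, puromycin-selected clones carrying a lentiviral control shRNA or an shRNA against CBAP, and form the shRNA set. The CRISPR set holds CBAP-KO cells, from GFP-sorted single-cell clones edited with CRISPR/Cas9, that were given either the CBAP gene as a CBAP-GFP fusion (CBAP-reconstituted) or GFP alone (CBAP-KO+GFP). Both kinds of CRISPR-set cells therefore carry the knockout, and no unedited control of that set is among the 8 libraries. The sh-Ctrl and CBAP-reconstituted libraries are the 4 CBAP-expressing ones, and the sh-CBAP and CBAP-KO+GFP libraries the 4 CBAP-deficient ones. The comparison asks which transcripts depend on CBAP, the common beta chain associating protein, which the study examined in leukemic growth.

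Cytokine receptors of this family have no kinase of their own. Each chain binds a Janus kinase, ligand brings the chains together, and the kinases phosphorylate STAT proteins that move to the nucleus and switch on target genes. IFNAR1 and IFNAR2 pair to bind type I interferons, IFNGR1 and IFNGR2 pair for interferon-gamma, and IL10RB is a shared chain of the receptors for IL-10, IL-22, IL-26 and interferon-lambda. IL2RG, the common gamma chain, joins IL7R, IL4R and IL21R (and other chains) to bind IL-7, IL-4 and IL-21, and IL27RA pairs with IL6ST to bind IL-27. IFNAR2, IL10RB, IFNAR1 and IFNGR2 lie in this order on chromosome 21.

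The values are the authors' FPKM, in which the fragments of a gene are scaled to its length and to the number mapped. The number of reads behind a value is unknown, library sums ran from 362082 to 434742, and 606 to 1256 genes of a library carried a listed 0. Of 54 genes that every cell uses, 1 was listed at 0 in each of the 4 CRISPR-set libraries, so a 0 is given only as a listed 0. Between 1 and 38 genes per condition were listed at 0 in both of its libraries and at 5 or more in the other 6. TMEM102, the gene of CBAP (GRCh37 chr17:7338754-7340998), had an FPKM of 4.07 and 4.74 in sh-Ctrl and of 2.69 and 2.89 in sh-CBAP cells (log2 fold change -0.51, SE 0.0964, limma's Benjamini-Hochberg adjusted p = 0.0287). All 4 CRISPR-set libraries listed it at 0. For the reconstituted cells this goes against the label, but whether the values count the CBAP-GFP transcript was not tested. The study assayed protein of its CBAP-GFP lines by immunoblot. The reconstituted libraries are therefore called here the libraries labelled CBAP-reconstituted, and every direction in that set rests on the label. T cell markers had a summed FPKM of 1477 to 2414 over the 11 of 12 listed with a row, but CD4 had only 0.128 to 3.47. None of 5 myeloid markers had a row. Of 4 B cell markers only CD79A had a row, at 0.732 to 22.5, and of 3 erythroid markers only HBA1, at 0 to 4.25. The libraries labelled CBAP-reconstituted stood apart in the T cell markers. Of 10 tested, 6 were lower there than in sh-Ctrl cells and 0 were higher, beside 10.7% and 28.7% of all tested genes. CD5 had an FPKM of 0.18 and 0.231 there against 19.7 to 27.4 in the other 6 libraries. CD28 had 2.93 and 2.59 against 24.1 to 37.5. In RNA from whole cultures, fewer cells with a transcript and less of it per cell cannot be told apart.

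The presence of IFNAR2 and IL10RB in the group was decided by their listed zeros, so these 2 genes are described without a test of CBAP loss. IFNAR2 was listed at 0 in both sh-Ctrl libraries and in both libraries labelled CBAP-reconstituted, and had an FPKM of 33.2 and 33.5 in sh-CBAP and of 32.9 and 32.6 in CBAP-KO+GFP cells. IL10RB was listed at 0 in the same 4 libraries, and had an FPKM of 8.09 and 9.09 in sh-CBAP and of 12.3 and 12.1 in CBAP-KO+GFP cells. With the CBAP-expressing libraries at 0 by the choice of these genes, every CBAP-deficient library was higher and the classes did not overlap. As a description of the table, 5 of the 13453 genes (0.0372%), these 2 included, had such a pattern. They were listed at 0 in all CBAP-expressing libraries and at 1 or more in all CBAP-deficient ones. The other 3 were HOXC10, the entry of HOXC4, HOXC5 and HOXC6, and ZNF324B, whose FPKM in CBAP-deficient cells ran from 2.67 to 11.6. SCARNA27 was the only gene with the opposite pattern (0.00743%), at 34.4 to 166 in CBAP-expressing cells. IFNAR2 was therefore the most abundant of the 5 genes, with ZNF324B the least.

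The level of IFNAR2 hardly varied once it was listed above 0. The highest of the 4 CBAP-deficient values was 1.03 times the lowest, a ratio that 14 of 10685 tested genes above 0 in these libraries (0.131%) matched or undercut, IFNAR2 included. For IL10RB the ratio was 1.52, which 52.7% of these genes matched or undercut. The comparison of the CBAP-deficient cells of both sets was the only one that the choice of these genes did not use. In it IL10RB was higher in CBAP-KO+GFP than in sh-CBAP cells, with a log2 fold change of 0.46 (SE 0.0822, adjusted p = 0.00613), while IFNAR2 had a log2 fold change of -0.03 (SE 0.0599, adjusted p = 0.723). Because the listed zeros add no spread to that model, the 4 CBAP-deficient libraries were also fitted alone, which gave adjusted p = 0.0354 for IL10RB and 0.682 for IFNAR2. Between these cells the median of all genes tested was higher by 0.20 on the log2 scale in the CRISPR set. Relative to it IL10RB was higher by 0.26 and IFNAR2 had a value of -0.23, and after scaling each library to its median FPKM IFNAR2 passed the threshold at -0.30 (adjusted p = 0.0129).

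**Figure D1:**
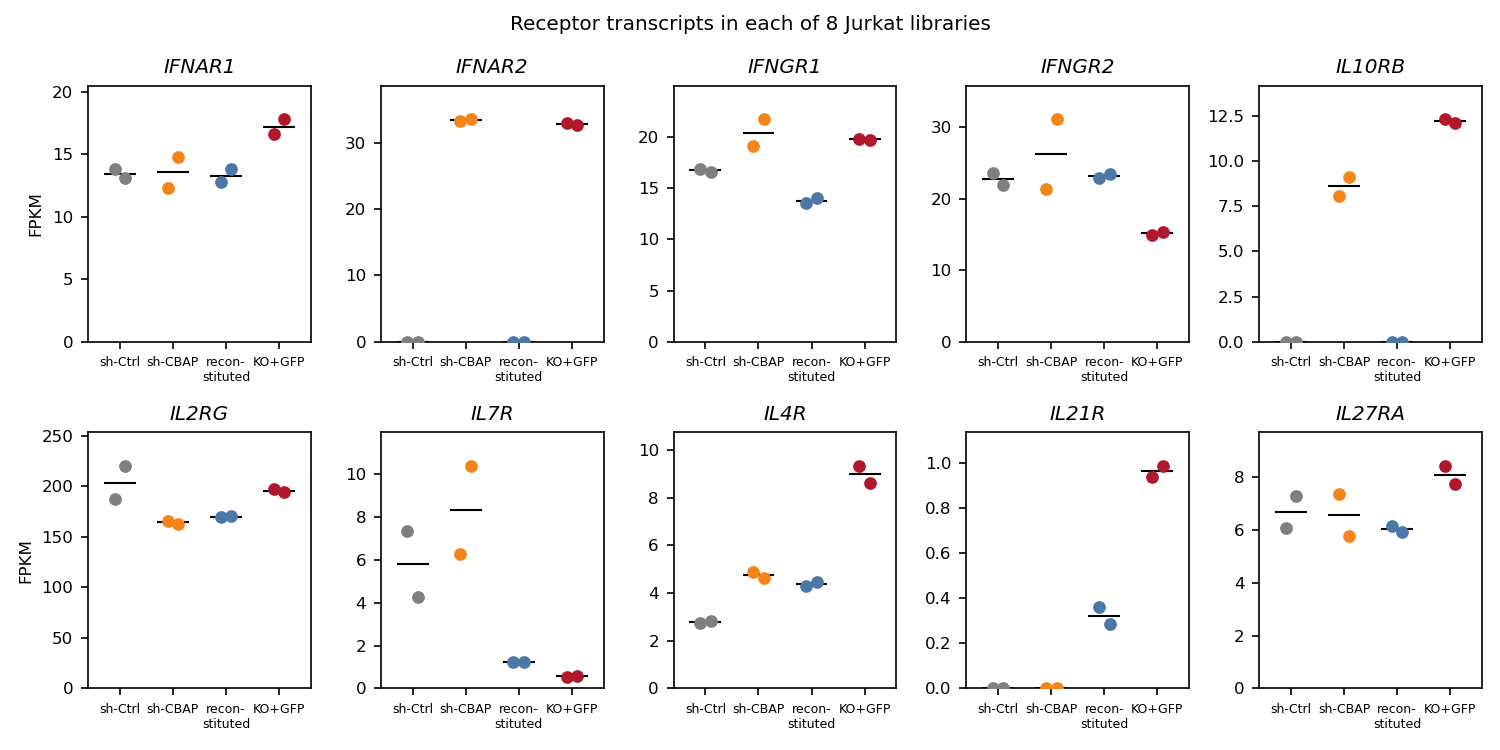
FPKM (vertical axis, from 0) of each of the 10 receptor genes in the 8 libraries, by condition (horizontal axis). Each point is a library and each bar the mean of 2. IFNAR2 and IL10RB are listed at 0 in the 4 CBAP-expressing libraries, IL4R is highest in CBAP-KO+GFP cells at 8.63 and 9.34, and IL7R falls to 0.581 or less there.

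On GRCh37, IFNAR2 spans chr21:34577587-34637980, IL10RB chr21:34638672-34683725, IFNAR1 chr21:34696692-34732170 and IFNGR2 chr21:34775719-34851655, all on the plus strand. Release 44 of GENCODE also places a readthrough gene, IFNAR2-IL10RB, over the first pair. On the same strand it shares 14.7% of the exon bases of IFNAR2 and 21.6% of those of IL10RB. The table had 0 entries naming the readthrough gene, and how reads were divided between the overlapping models was not tested. IL2RG shared 51.3% of its exon bases with an unnamed overlapping model, as 1.59% of 9977 matched genes did for at least 50% of theirs. The other 7 genes shared none.

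The listed zeros stopped at IL10RB. IFNAR1, which starts 119 kb from the IFNAR2 start, and IFNGR2, which starts 198 kb from it, were above 0 in every library. Of 11 further genes of this stretch with a row, from SYNJ1 at -477 kb to ATP5O at 711 kb, OLIG1 was the only one listed at 0 anywhere, in both sh-Ctrl libraries, with 0.194 to 0.916 in the others. In sh-CBAP against sh-Ctrl cells 0 of the 9 tested neighbours passed an adjusted p of 0.05 in limma, where 12.3% of all tested genes did. Scaling each library to its median FPKM, or leaving out genes with a listed 0, gave 2 lower. In CBAP-KO+GFP cells against those labelled CBAP-reconstituted, 5 of the 9 passed, where 49.9% of all tested genes did. GCFC1 (0.52, adjusted p = 0.0445), TMEM50B (0.44, adjusted p = 0.017) and SYNJ1 (0.39, adjusted p = 0.0103) were higher on the log2 scale. GART, an enzyme of purine synthesis, had 43.5 and 45.1 in CBAP-KO+GFP cells against 89.1 and 90 in those labelled CBAP-reconstituted (lower by the same test, SE 0.0907 on the log2 scale, adjusted p = 0.000582). ATP5O, a subunit of the mitochondrial ATP synthase, had 167 and 161 against 268 and 274 (log2 fold change -0.72, adjusted p = 0.000302). SON, DONSON, CRYZL1 and ITSN1 did not pass in either set, and DNAJC28 and OLIG1 were below a mean FPKM of 1.

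**Figure D2:**
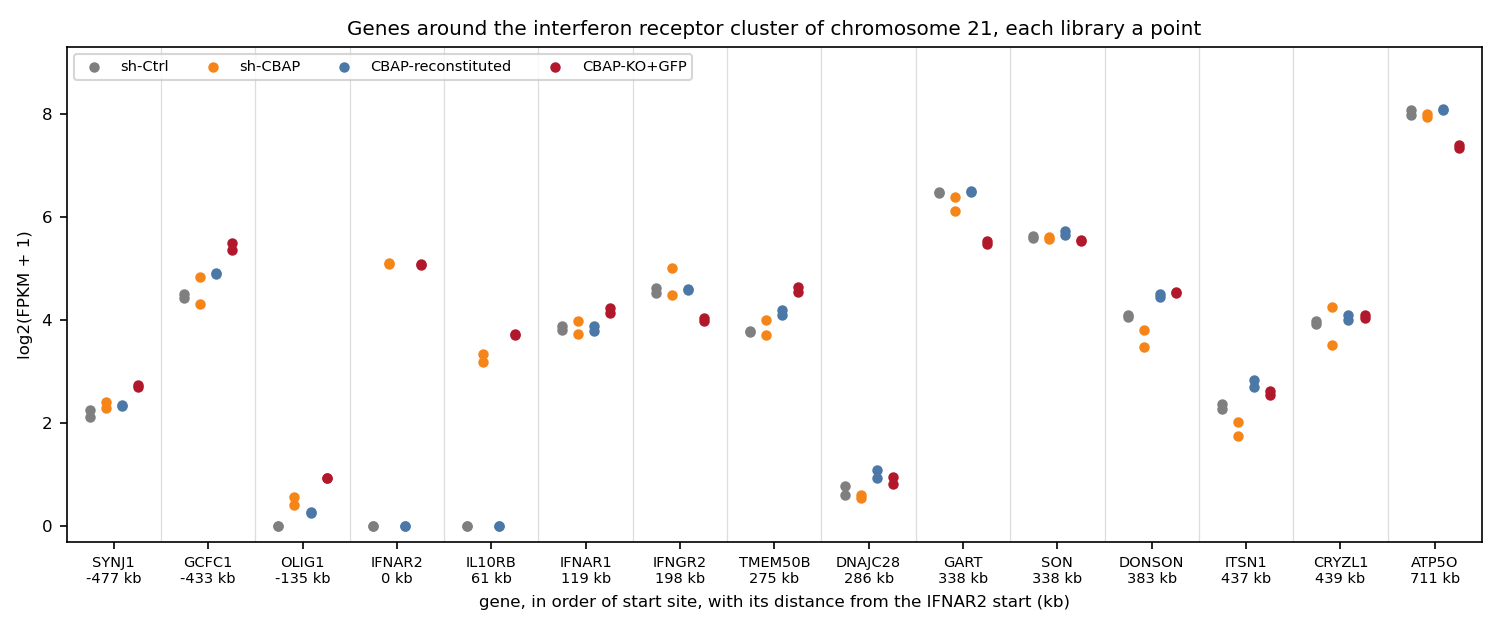
Level, as log2(FPKM + 1) (vertical axis), of the 15 genes with a row around the receptor cluster of chromosome 21, in order of start site with the distance from the IFNAR2 start in kb (horizontal axis). Each point is a library, coloured by condition. Listed zeros of both CBAP-expressing conditions appear at IFNAR2 and IL10RB, between OLIG1 at -135 kb and IFNAR1 at 119 kb.

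Promoter sequence is shown for IL10RB, with listed zeros in CBAP-expressing cells, for IL4R, which passed the test in both sets, and for IL7R, with the highest ratio between condition means among the genes without a listed 0. The sequences come from RefSeq on GRCh38.p14, not the build of the deposited data, and give the 250 bases before the annotated start, 5′ to 3′ on the strand of the gene. They are chr21:33266117-33266366, chr16:27313724-27313973 and chr5:35856641-35856890, all on the plus strand. Of the 10 genes 9 matched that table, IFNAR2 being the exception. Capitals mark GGGCGG (the GC box) and TATAAA (the TATA box), searched on both strands, and neighbouring matches may overlap.
IL10RB: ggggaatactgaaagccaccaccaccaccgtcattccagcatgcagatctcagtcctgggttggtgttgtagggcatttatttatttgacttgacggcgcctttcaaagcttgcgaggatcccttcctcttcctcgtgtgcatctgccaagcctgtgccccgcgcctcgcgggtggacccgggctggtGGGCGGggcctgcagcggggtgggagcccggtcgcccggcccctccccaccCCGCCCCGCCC
IL4R: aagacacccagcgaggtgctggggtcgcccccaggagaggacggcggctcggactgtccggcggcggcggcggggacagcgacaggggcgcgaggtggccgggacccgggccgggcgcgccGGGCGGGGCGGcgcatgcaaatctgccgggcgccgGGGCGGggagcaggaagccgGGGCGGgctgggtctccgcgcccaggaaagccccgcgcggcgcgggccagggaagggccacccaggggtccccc
IL7R: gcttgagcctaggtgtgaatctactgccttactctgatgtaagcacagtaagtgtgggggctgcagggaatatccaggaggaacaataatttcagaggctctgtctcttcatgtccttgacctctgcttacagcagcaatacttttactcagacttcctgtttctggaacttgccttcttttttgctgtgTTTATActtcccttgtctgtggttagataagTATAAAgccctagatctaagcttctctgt
GGGCGG matched 3 times in IL10RB, 4 times in IL4R and 0 times in IL7R, and at least 1 match was found in 42.6% of 35116 RefSeq promoters of this length. TATAAA matched 2 times in IL7R and 0 times in the other 2 sequences, against 10.7% of promoters with a match. GC bases made up 65.2% of the IL10RB, 80.8% of the IL4R and 43.6% of the IL7R sequence. TTCNNNGAA, a pattern that STAT proteins can bind, and GTAAACA, a forkhead pattern, were searched too and had no match in these 3 sequences. They matched in 6.57% and 2.98% of all promoters.

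IFNGR1, the ligand-binding chain of the interferon-gamma receptor, had an FPKM of 16.9 and 16.6 in sh-Ctrl, 19.1 and 21.7 in sh-CBAP, 13.5 and 14 in the libraries labelled CBAP-reconstituted, and 19.8 and 19.7 in CBAP-KO+GFP cells. All 4 CBAP-deficient libraries were above all 4 CBAP-expressing ones, as was so for 4.67% of all tested genes. IFNGR1 rose in the CRISPR set, with a log2 fold change of 0.49 (SE 0.0713, adjusted p = 0.0029), and had 0.26 (SE 0.0713, adjusted p = 0.0684) in the shRNA set. The shRNA change minus the CRISPR change was -0.23 (adjusted p = 0.135). Scaling each library to its median FPKM brought the shRNA set past the threshold, at 0.32 (adjusted p = 0.0144), as did leaving out replicate 1 of sh-CBAP, at 0.35 (adjusted p = 0.0177). Between the 4 CBAP-deficient and the 4 CBAP-expressing libraries it was 0.38 (SE 0.101, adjusted p = 0.109), and with the set as a covariate the same value had adjusted p = 0.0281. That covariate raised the calls over all tested genes from 71 to 1404.

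IFNGR2, the chain that brings JAK2 to the interferon-gamma receptor, moved otherwise. It had an FPKM of 23.6 and 21.9 in sh-Ctrl, 21.4 and 31.1 in sh-CBAP, 22.9 and 23.4 in the libraries labelled CBAP-reconstituted, and 14.9 and 15.4 in CBAP-KO+GFP cells. The CBAP-KO+GFP libraries were below the other 6, and 1 sh-CBAP library was the highest. IFNGR2 fell in the CRISPR set by 0.58 on the log2 scale (SE 0.164, adjusted p = 0.0304). Its log2 fold change between the shRNA cells was 0.17 (SE 0.164, adjusted p = 0.521). It became -0.09 (adjusted p = 0.382) without replicate 2 of sh-CBAP and 0.43 (adjusted p = 0.0202) without replicate 1. The shRNA change minus the CRISPR change was 0.75 (SE 0.232, adjusted p = 0.054). It passed under quantile normalization (0.80, adjusted p = 0.0204), with libraries scaled to their median FPKM (0.90, adjusted p = 0.0135), with listed zeros left out (adjusted p = 0.0282), and without replicate 1 (1.01, adjusted p = 0.00194) or replicate 2 (0.49, adjusted p = 0.0109) of sh-CBAP. The call in the CRISPR set was lost without either CBAP-KO+GFP library (adjusted p = 0.108 and 0.0904), either labelled CBAP-reconstituted (0.113 and 0.127) or either sh-Ctrl library (0.0524 and 0.0525).

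IFNAR1, the chain that binds TYK2 in the type I interferon receptor, had an FPKM of 13.8 and 13.1 in sh-Ctrl, 12.3 and 14.8 in sh-CBAP, 12.8 and 13.8 in the libraries labelled CBAP-reconstituted, and 16.6 and 17.8 in CBAP-KO+GFP cells. Only the CBAP-KO+GFP libraries stood above the rest, and the other 3 conditions overlapped. The log2 fold change was 0.34 (SE 0.0973, adjusted p = 0.0301) in the CRISPR set and 0.01 (adjusted p = 0.973) in the shRNA set, and the difference of these changes did not pass (adjusted p = 0.113). The call in the CRISPR set was lost when any 1 of its 4 libraries was left out (log2 fold change 0.29 to 0.40, adjusted p = 0.0702 to 0.157).

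The common gamma chain IL2RG was by far the most abundant of the 10 transcripts, at an FPKM of 163 to 220 where the next, IFNAR2, reached 33.5. It had 187 and 220 in sh-Ctrl, 165 and 163 in sh-CBAP, 169 and 170 in the libraries labelled CBAP-reconstituted, and 197 and 194 in CBAP-KO+GFP cells. The change of IL2RG differed between the sets past the threshold, alone among the 7 tested genes under the main settings, with a difference, shRNA minus CRISPR, of -0.51 (SE 0.112, adjusted p = 0.0202), where 33.8% of all tested genes passed and 18.3% passed in that direction. The change itself passed in neither set, at -0.31 (SE 0.0794, adjusted p = 0.0621) in the shRNA set and 0.20 (SE 0.0794, adjusted p = 0.0789) in the CRISPR set. The difference was lost without either CBAP-KO+GFP library (adjusted p = 0.0653 and 0.0597) or either labelled CBAP-reconstituted (0.0819 and 0.0782), and when libraries were scaled to their median FPKM (-0.35, adjusted p = 0.076).

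IL4R, which binds IL-4 and signals through STAT6, was the only member past the threshold in both sets. Of all tested genes 12.3% passed in the shRNA and 49.9% in the CRISPR set, and the share passing in both was not counted. Its FPKM was 2.76 and 2.83 in sh-Ctrl, 4.9 and 4.62 in sh-CBAP, 4.3 and 4.46 in the libraries labelled CBAP-reconstituted, and 9.34 and 8.63 in CBAP-KO+GFP cells. The 4 conditions followed each other with no overlap, with the CBAP-deficient cells higher in each set. Every CBAP-deficient library, from 4.62 up, was above every CBAP-expressing one, at most 4.46, as was so for 4.67% of all tested genes. Mean FPKM was 1.7 times that of sh-Ctrl in sh-CBAP cells and 2.05 times that of the cells labelled CBAP-reconstituted in CBAP-KO+GFP cells. IL4R rose by a log2 fold change of 0.60 (SE 0.0715, adjusted p = 0.00973) in the shRNA set and of 0.89 (SE 0.0715, adjusted p = 0.000398) in the CRISPR set. The changes did not differ past the threshold (difference -0.29, SE 0.101, adjusted p = 0.076). Over both sets together the log2 fold change of 0.75 (SE 0.254) had adjusted p = 0.16, and 0.0105 with the set as a covariate. With that covariate 1404 of all tested genes were called, against 71 without it. IL4R kept its call in each set under every alternative tried, with adjusted p of 0.00578 to 0.0468 in the shRNA set and of 0.000136 to 0.00757 in the CRISPR set.

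IL7R, a chain that binds IL-7, a survival factor of T cell precursors, differed most between the sets. Its FPKM was 7.37 and 4.26 in sh-Ctrl, 6.26 and 10.4 in sh-CBAP, 1.24 and 1.21 in the libraries labelled CBAP-reconstituted, and 0.527 and 0.581 in CBAP-KO+GFP cells. All CRISPR-set libraries were below all shRNA-set libraries, and the highest condition mean was 15.1 times the lowest. Within the CRISPR set the CBAP-KO+GFP mean was 0.453 times that of the libraries labelled CBAP-reconstituted, with no overlap. The libraries labelled CBAP-reconstituted were lower than sh-Ctrl (log2 fold change -1.58, SE 0.285, adjusted p = 0.00948), and CBAP-KO+GFP lower than sh-CBAP cells (-2.55, SE 0.285, adjusted p = 0.00126). Since the median gene was higher in the CRISPR set by 0.17 and 0.20, these changes relative to it were -1.74 and -2.75. The first lost its call without either library labelled CBAP-reconstituted (adjusted p = 0.0607 and 0.0637). Set, clone and the authors' processing of each set cannot be told apart here. Within the sets IL7R had 0.46 (SE 0.285, adjusted p = 0.335) and -0.52 (SE 0.285, adjusted p = 0.182), and with a pseudocount of 0.1 the latter was -1.02 (adjusted p = 0.0497).

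IL27RA had an FPKM of 6.09 and 7.28 in sh-Ctrl, 7.39 and 5.77 in sh-CBAP, 6.17 and 5.94 in the libraries labelled CBAP-reconstituted, and 8.44 and 7.75 in CBAP-KO+GFP cells. It passed no test, with log2 fold changes of -0.02 (adjusted p = 0.931) in the shRNA set and 0.37 (SE 0.131, adjusted p = 0.0629) in the CRISPR set, which passed without either sh-CBAP library (adjusted p = 0.0263 and 0.026). IL21R was listed at 0 in all 4 shRNA-set libraries, and had 0.36 and 0.285 in those labelled CBAP-reconstituted and 0.938 and 0.987 in CBAP-KO+GFP cells. With a mean FPKM under 1 it was not tested. IL21R and IL4R lie near each other on chromosome 16, at chr16:27413495-27463363 and chr16:27324989-27376099 of GRCh37. Both were highest in CBAP-KO+GFP cells, as were IFNAR1, IL10RB and IL27RA, which lie on other chromosomes.

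Counted together, 9 of the 10 genes had a mean FPKM of at least 1, IFNAR2 and IL10RB only through the CBAP-deficient cells, and 7 were tested in every comparison. Between the classes 0 of the 7 passed, where 0.621% of all 11427 tested genes did, 0.21% of them higher. Unadjusted p was under 0.05 for 2397 of all tested genes and for IFNGR1 (0.00583) and IL4R (0.0189). Of the 7, 1 was higher and 0 lower in the shRNA set, beside 3.62% and 8.7% of all tested genes. In the CRISPR set 3 were higher and 1 lower, beside 23.9% and 25.9% of all tested genes. The 7 had a median log2 fold change of 0.17 for the shRNA and 0.34 for the CRISPR cells, beside -0.06 and 0.00 for all tested genes. In the CBAP-expressing cells of the sets 4 of 7 differed (39.4% of all tested genes, 28.7% higher). IL4R was higher in the libraries labelled CBAP-reconstituted than in sh-Ctrl cells (0.50, or 0.34 relative to the median gene, adjusted p = 0.00456). IL7R, IFNGR1 (-0.27, adjusted p = 0.0313) and IL2RG (-0.26, adjusted p = 0.0485) were lower. The call of IFNGR1 was lost without any 1 of 6 libraries (all but those of sh-CBAP) and that of IL2RG without any 1 of 7 (all but replicate 1 of sh-Ctrl). In the CBAP-deficient cells of the sets 5 of the 7 differed (52.8% of all tested genes), besides IL10RB. IL4R (0.79, adjusted p = 0.000636), IFNAR1 (0.33, adjusted p = 0.0345), IL2RG (0.25, adjusted p = 0.0402) and IL10RB were higher in CBAP-KO+GFP than in sh-CBAP cells, and IFNGR2 (-0.73, adjusted p = 0.0135) and IL7R lower. Relative to the median gene these were 0.59 for IL4R, 0.13 for IFNAR1, 0.05 for IL2RG and -0.93 for IFNGR2, and with each library scaled to its median FPKM IL2RG turned to -0.02 and IFNAR1 fell short at 0.07 (adjusted p = 0.459). IFNAR1 also lost its call without any 1 of 7 libraries (all but replicate 2 of sh-CBAP), IL2RG without any 1 of 6 (all but those of sh-Ctrl), and IFNGR2 without either CBAP-KO+GFP library (adjusted p = 0.0586 and 0.0502).

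**Figure D3:**
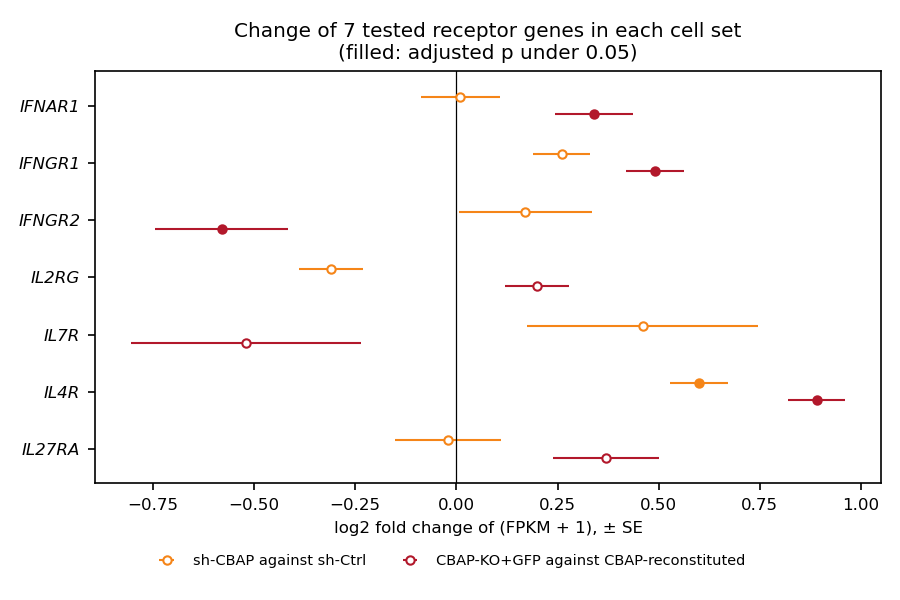
Log2 fold change of FPKM + 1 (horizontal axis) with its SE for the 7 tested receptor genes (vertical axis), in the shRNA set (orange) and the CRISPR set (red). Filled points passed an adjusted p of 0.05 in limma. IL4R is filled in both sets, at 0.60 and 0.89, and IFNGR2, IL2RG and IL7R lie on opposite sides of 0.

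The genes whose levels followed each receptor most closely over the 8 libraries were ranked by Pearson's r of log2(FPKM + 1), a description over points that share sets and libraries. For IFNAR2 and IL10RB the listed zeros fix which genes come closest, so none is given. For IL4R they were TANK (0.988), an adaptor of innate immune signalling, DCLRE1A (0.988) and ZNF738 (0.987). TANK had 10.6 and 11.4 in sh-Ctrl, 13.4 and 13.1 in sh-CBAP, 12.7 and 13.5 in the libraries labelled CBAP-reconstituted, and 19.2 and 19.3 in CBAP-KO+GFP cells. For IFNGR1 they were TEAD1 (0.994), WDFY1 (0.988) and PLCB1 (0.980). IL7R was followed by SOX5 (0.994), the entry of C18orf32 and RPL17 (0.988) and PPM1H (0.987). XPR1 (0.999), PPM1A (0.993) and HAT1 (0.991) followed IFNAR1, UBR1 (0.985), TCEA1 (0.980) and SEPT2 (0.978) followed IFNGR2, HIST2H2BE (0.979), LOXL1 (0.945) and MGRN1 (0.941) followed IL2RG, and HMHA1 (0.973), LIMD2 (0.964) and ARHGEF2 (0.954) followed IL27RA.

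Few partner chains of these receptors were measured at all. Of 36 further cytokine receptor chains listed, 16 had a row and 8 had a mean FPKM of at least 1. IL10RA, the partner of IL10RB in the IL-10 receptor, had 0.593 to 1.19, and IL2RB, which joins IL2RG, 0.201 to 1.74. Of the 8, 1 was higher and 1 lower in the shRNA set, with a median log2 fold change of 0.13, where 3.62% of all tested genes were higher and 8.7% lower. IL17RA, the shared chain of IL-17 receptors, rose from 4.24 and 4.61 in sh-Ctrl to 6.59 and 5.91 in sh-CBAP cells (log2 fold change 0.42, adjusted p = 0.029). IL9R, which pairs with IL2RG to bind IL-9, fell from 14.4 and 16.2 to 6.84 and 7.98 (log2 fold change -0.95, adjusted p = 0.0253). In the CRISPR set 7 of the 8 were higher and 1 lower, with a median of 0.61, where 23.9% of all tested genes were higher and 25.9% lower. Those higher were IL17RA, TGFBR1, TNFRSF1A, IL9R, TGFBR2, IL6ST and IL1RAP. Only IL9R and IL6ST among them pair with a receptor gene described here, and the rest belong to other receptors. Quantile normalization left 4 higher and scaling to the median FPKM left 5, each with 1 lower. IL17RA had 14.6 and 15.1 in CBAP-KO+GFP cells against 3.19 and 2.99 in those labelled CBAP-reconstituted (log2 fold change 1.96, adjusted p = 4.02e-05). IL15RA, the chain specific to IL-15, had 0.0837 and 0.0451 against 1.88 and 2.06 (-1.48, adjusted p = 0.000446). IL9R was higher there, by 0.78 (adjusted p = 0.0127), opposite to its change in the shRNA set, and the changes of the sets differed by -1.73 (adjusted p = 0.00479). Of 22 cytokine ligands 5 had a row and 4 were tested, and in the CRISPR set IL16 (1.87, adjusted p = 0.000305) and IL26 (1.85, adjusted p = 0.000774) were higher. Neither passed in the shRNA set.

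Among the kinases and STATs that carry the signal, JAK1 was the only one of the 11 reported here past the threshold in both sets. JAK1, which binds IFNAR2, IFNGR1, IL4R, IL7R and other chains, had an FPKM of 18.9 and 19.2 in sh-Ctrl, 27.5 and 26.1 in sh-CBAP, 15.8 and 16.3 in the libraries labelled CBAP-reconstituted, and 24.2 and 24.4 in CBAP-KO+GFP cells. All 4 CBAP-deficient libraries were above all 4 CBAP-expressing ones, as was so for 4.67% of all tested genes. JAK1 rose by 0.47 on the log2 scale (adjusted p = 0.00827) in the shRNA set and by 0.57 (adjusted p = 0.000589) in the CRISPR set. In the CRISPR set JAK3, the kinase bound by IL2RG, was higher by 1.16 (adjusted p = 0.0191), STAT2 by 0.62 (adjusted p = 0.013), STAT6 by 0.36 (adjusted p = 0.00639) and STAT5B by 0.32 (adjusted p = 0.0119). Of the 11, 5 were higher and 0 lower in the CRISPR set, with a median of 0.33, and 1 was higher and 0 lower in the shRNA set, with a median of 0.02. Of all tested genes 49.9% were called in the CRISPR and 12.3% in the shRNA set, and the share called in both was not counted. IRF9, which joins STAT2 in the complex formed after type I interferon, was listed at 0 in 1 sh-CBAP library and had 3.42 to 7.63 in the other 7.

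Of 20 negative regulators of cytokine signalling, 1 was higher in the shRNA set and 6 were higher and 1 lower in the CRISPR set, with medians of -0.04 and 0.10, where 12.3% and 49.9% of all tested genes were called. SOCS3 rose from 0.731 and 0.848 in sh-Ctrl to 1.76 and 1.49 in sh-CBAP cells (0.55, adjusted p = 0.022). The largest value in the CRISPR set was that of PTPN6, a phosphatase of receptor signalling, with a log2 fold change of 3.64 (adjusted p = 5.97e-05). PTPN6 had 117 and 114 in CBAP-KO+GFP cells and 8.05 and 8.56 in those labelled CBAP-reconstituted, but 90 and 129 in sh-Ctrl and 93.4 and 82.4 in sh-CBAP cells. The low values thus lay in the same 2 libraries as those of CD5, and their part in the result was not tested. SOCS7 (0.67, adjusted p = 0.000535), PIAS1 (0.57, adjusted p = 0.00449) and SOCS6 (0.56, adjusted p = 0.00302) followed.

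**Figure D4:**
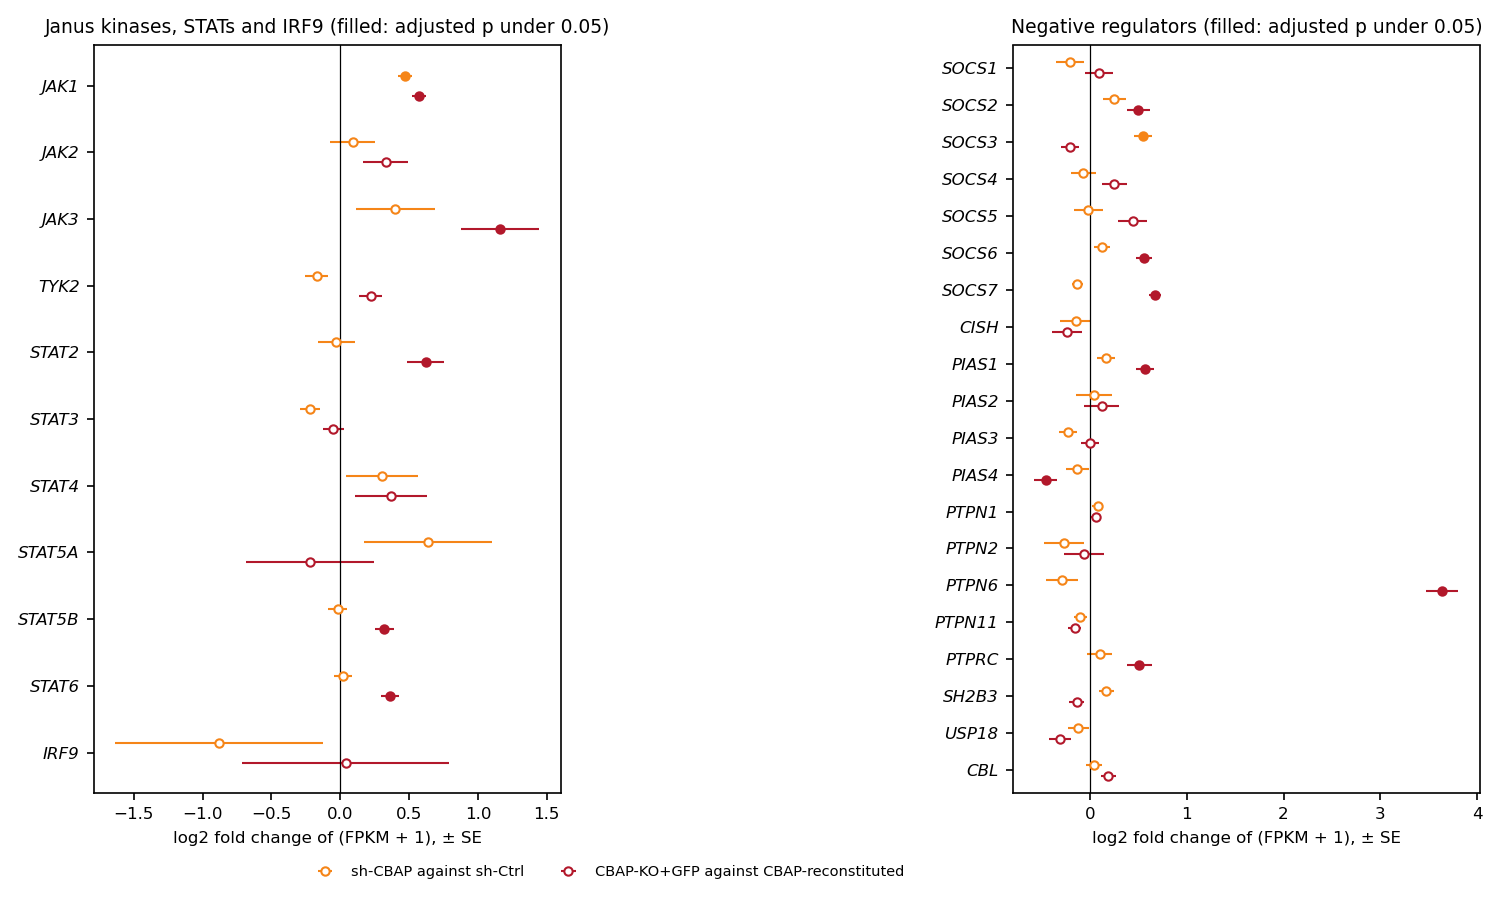
Log2 fold change of FPKM + 1 (horizontal axes) with its SE for 11 genes, Janus kinases, STATs and IRF9 (left), and 20 negative regulators (right), in the shRNA set (orange) and the CRISPR set (red). Filled points passed an adjusted p of 0.05. JAK1 is filled in both sets, and PTPN6 stands at 3.64 in the CRISPR set.

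None of the interferon genes listed had a row. Of 54 type I interferon-stimulated genes 43 were tested. Of these, 5 were higher and 0 lower in the shRNA set, with a median log2 fold change of 0.07, beside 3.62% higher and 8.7% lower of all tested genes. The 4 largest were LGALS3BP (1.55, adjusted p = 0.00113), IFITM2 (1.01, adjusted p = 0.0155), IFITM3 (0.83, adjusted p = 0.0089) and OAS2 (0.73, adjusted p = 0.0174). IFITM2 and IFITM3 encode membrane proteins that block virus entry, and OAS2 a sensor of double-stranded RNA. IFITM2 had 32.2 and 32.5 in sh-Ctrl and 59.1 and 73.9 in sh-CBAP cells. In the CRISPR set 11 were higher and 16 lower, with a median of -0.08, beside 23.9% and 25.9% of all tested genes. XAF1, which promotes apoptosis, had 23.4 and 21.8 in CBAP-KO+GFP cells against 1.04 and 0.823 in those labelled CBAP-reconstituted (3.61, adjusted p = 4.34e-05). It had 6.51 to 12.1 in the shRNA-set libraries, and the part of those labelled CBAP-reconstituted was not tested. IFITM1 (2.24, adjusted p = 0.000501) and BST2 (1.72, adjusted p = 0.00062), which tethers budding viruses, were higher, and EPSTI1 was lower (-2.32, adjusted p = 0.000492). BST2 was at 0.104 and a listed 0 in the libraries labelled CBAP-reconstituted and at 8.29 to 15.9 in all 4 shRNA-set libraries. LGALS3BP, highest by change in the shRNA set, was lower in the CRISPR set (-0.48, adjusted p = 0.0087), and the changes of the sets differed by 2.03 (adjusted p = 0.000422).

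Most tested interferon-gamma targets were lower in the CRISPR set. Of 22 listed, 10 were tested, and 1 was higher and 7 lower, with a median log2 fold change of -0.45 beside 0.00 for all tested genes, of which 23.9% were higher and 25.9% lower. In the libraries labelled CBAP-reconstituted 6 of the 10 were higher and 1 lower than in sh-Ctrl cells, beside 28.7% and 10.7% of all tested genes. Quantile normalization left 4 higher and 1 lower, as did scaling to the median FPKM. The part of these libraries in the result was not tested. GBP1, a GTPase of cell-autonomous defence, had 0.043 and 0.0556 in CBAP-KO+GFP cells against 3.95 and 4.05 in those labelled CBAP-reconstituted (-2.25, adjusted p = 0.000312), and 0.748 and 1.48 in sh-Ctrl cells. PSMB10, an immunoproteasome subunit, had 27.1 and 28.1 against 77.6 and 72.1 (-1.40, adjusted p = 0.000858). GBP3 was lower too (-0.94, adjusted p = 0.00102), and IRF8, a transcription factor, was higher (1.21, adjusted p = 0.0131). In the same comparison 37 of 54 genes that every cell uses, proteasome subunits among them, were lower and 1 was higher, with a median of -0.50. FAS, the death receptor, was the only target past the threshold in the shRNA set (0.41, adjusted p = 0.0169), and the median was -0.10.

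**Figure D5:**
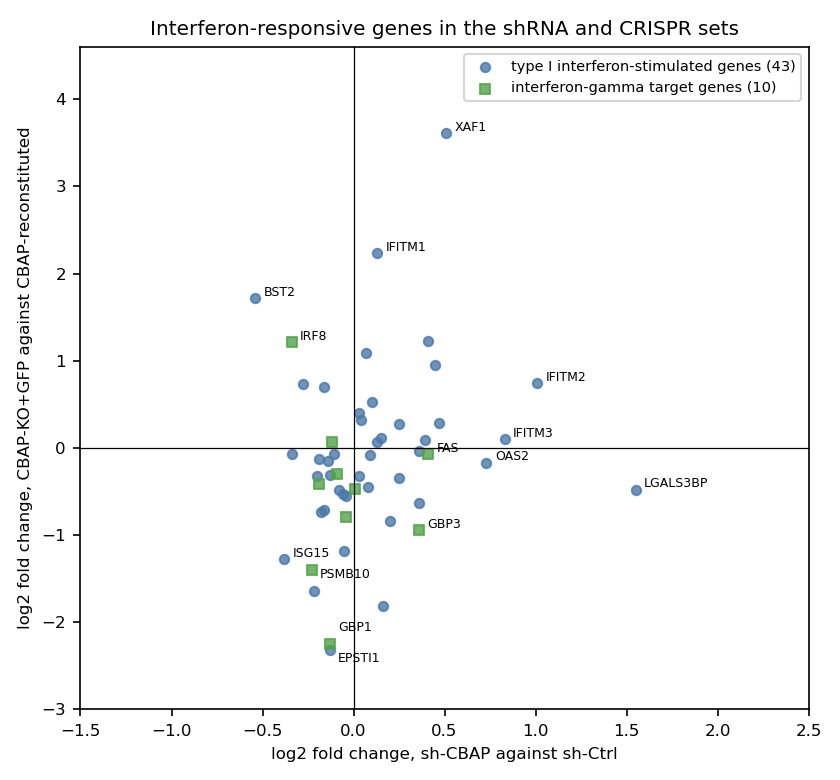
Log2 fold change of FPKM + 1 in the shRNA set (horizontal axis) against that in the CRISPR set (vertical axis) for 43 type I interferon-stimulated genes (circles) and 10 interferon-gamma targets (squares). The sets share no library. XAF1 lies highest at 3.61 in the CRISPR set and LGALS3BP farthest right at 1.55 in the shRNA set.

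Targets of IL-2, IL-4 and IL-7 signalling were the last group, with 12 of 15 tested. GATA3, a T cell transcription factor that IL-4 signalling induces, was higher in both sets. It had 25.5 and 25.9 in sh-Ctrl, 30.9 and 34 in sh-CBAP, 32.2 and 33.5 in the libraries labelled CBAP-reconstituted, and 40.8 and 40 in CBAP-KO+GFP cells. Its log2 fold change was 0.32 (adjusted p = 0.0278) and 0.29 (adjusted p = 0.0104), and the CBAP classes overlapped. LTA, a lymphocyte cytokine, was lower in the shRNA set (-0.92, adjusted p = 0.0281). In the CRISPR set 5 were higher and 2 lower, with a median of 0.20, among them BCL2, an inhibitor of apoptosis (0.94, adjusted p = 0.0013), and PIM3, a kinase, which was lower (-1.14, adjusted p = 0.00081). In the shRNA set the counts were 1 and 1, with a median of 0.09. The shares of all tested genes called were 49.9% in the CRISPR and 12.3% in the shRNA set, and the share called in both was not counted. PIM3 had 156 and 156 in the libraries labelled CBAP-reconstituted and 69.8 and 70.2 in CBAP-KO+GFP cells. In the shRNA set it had 75.6 to 92.6, and the part of the libraries labelled CBAP-reconstituted was not tested. Between the classes 0 genes of any of these lists passed, and 0.621% of all tested genes did.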

How the data were processed

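RNA of 8 Jurkat libraries was sequenced as paired ends. The authors aligned reads to hg19 and computed the deposited FPKM per gene. The submitters' processing notes name CASAVA 1.8, Bowtie, TopHat, Cufflinks and Cuffdiff. The gene annotation they used is not given in the sources used here. FPKM keep no read counts, so depth and counting error are unknown.

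The 11427 of 13453 genes whose mean FPKM reached 1 were tested on log2(FPKM + 1) with limma 3.58.1 (R 4.3.3, moderated variances with a trend), with p-values adjusted over all of them (Benjamini-Hochberg) and called under 0.05. The pseudocount makes the changes of low genes look smaller than they are. A model of 4 condition means gave the shRNA set, the CRISPR set, the difference of their changes and the comparisons across sets. Its spread for a gene was shared by all 8 libraries, so the SE was the same in both sets and rests on libraries of both. A model of 2 classes gave CBAP-deficient against CBAP-expressing. No source says that the 2 libraries of a condition came from separate clones or cultures, so p-values measure only the spread between these libraries, which may be technical. TMEM102 was tested in the shRNA set only, and IFNAR2 and IL10RB only between CBAP-deficient conditions. On simulated data for sh-CBAP against sh-Ctrl, 78% of 200 genes with a log2 change of 1 were called, with 6 false calls among 162 (11290 genes), 91.5% with a change of 2, with 7 false among 190 (11274 genes), and 0 of 11266 with none.

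The genes and lists were chosen with earlier results of these data known. One listed gene is not reported here, and the counts of its list leave it out. The text names the 10 receptor genes, TMEM102, every listed neighbour on chromosome 21 with a row, up to 4 called genes per list and comparison by size of change, the 3 genes most like each of the 7 tested receptors by Pearson's r, and genes with listed zeros by class. SON, IL10RA, IL2RB, IRF9, STAT5B, STAT6, CD4, CD5, CD28, CD79A and HBA1, where they fall outside that rule, were named after their values were seen. The same holds for IL6ST, TGFBR1, TGFBR2, TNFRSF1A and IL1RAP. Positions are from GENCODE 44 lifted to GRCh37, and promoters from RefSeq on GRCh38.p14. Python 3.11.15, pandas 2.3.3, numpy 2.4.6 and matplotlib 3.10.9 were used. Alternatives were another pseudocount, other filters, quantile normalization, scaling to the median FPKM, no variance trend, genes with a listed 0 left out, a replicate block, the set as a covariate, and each library left out. Fitting the CBAP-deficient libraries alone was added after seeing the data.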

Additional observations from a re-analysis of the deposited data

Results flagged for a closer look

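IL27RA had an FPKM of 7.28 in replicate 2 of sh-Ctrl, far above the other 3 CBAP-expressing libraries at 5.94, 6.09 and 6.17 by Dixon's criterion. Of 18 groups of 4 libraries examined this was the only one. Chance would give about 0.9 if each group were a single population, but each mixes conditions, so that number is only a guide. Replicate 1 of sh-CBAP, in the same set, had 7.39.

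The change of IL2RG differed between the sets, by -0.51 on the log2 scale as the shRNA change minus the CRISPR change (limma interaction, SE 0.112, adjusted p = 0.0202, and 0.0039 to 0.0819 over the alternatives). Both sh-CBAP libraries (165 and 163) were below both sh-Ctrl libraries (187 and 220), and both CBAP-KO+GFP libraries (197 and 194) were above both labelled CBAP-reconstituted (169 and 170).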

How the results depend on the processing

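Of 705 values of single receptor genes under an alternative, 605 kept their direction and their side of the threshold, 51 lost and 28 gained a call, and 21 changed sign, and unless stated the cause was not tested. IL4R in both sets and across them, IFNGR1 in the CRISPR set, and IL10RB and IL7R between the CBAP-deficient conditions passed under every alternative. The number of receptor genes past the threshold between the classes was 0 (71 of all tested genes), and 2 with the set as a covariate (1404 of all tested genes). In the shRNA set it was 1, and 2 under quantile normalization, scaling to the median FPKM, or with listed zeros left out. For the difference between the sets it was 1, and 2 with no filter on low values, under quantile normalization or with listed zeros left out. Leaving out 1 library gave 0 between the classes, 1 to 3 in the shRNA set, 2 to 5 in the CRISPR set (4 with all), 0 to 4 for the difference, 1 to 3 in CBAP-reconstituted against sh-Ctrl (4 with all) and 3 to 5 in CBAP-KO+GFP against sh-CBAP (6 with all). Quantile normalization turned the class values of IL2RG to 0.09 and of IL7R to 0.02, that of IL27RA in the shRNA set to 0.05, and that of IFNGR2 between the CBAP-expressing conditions to -0.15. Scaling to the median FPKM turned the latter 2 to 0.02 and -0.09, and IL2RG between the CBAP-deficient conditions to -0.02. With 1 library left out, values changed sign within these ranges: between the classes IL2RG -0.10 to 0.03 and IL7R -0.56 to 0.40, in the shRNA set IFNAR1 -0.11 to 0.13, IFNGR2 -0.09 to 0.43 and IL27RA -0.18 to 0.13, between the CBAP-expressing conditions IFNAR1 -0.06 to 0.04 and IFNGR2 -0.03 to 0.08, and between the CBAP-deficient ones IFNGR1 -0.13 to 0.05.

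Over all tested genes, 71 calls between the classes became 108 with no filter, 201 under quantile normalization, 187 scaled to the median FPKM, 1404 with the set as a covariate, and 8 to 76 with 1 library left out. Leaving out 1 library gave 306 to 2376 in the shRNA set (1408 with all), 3376 to 6847 in the CRISPR set (5697), 1849 to 5149 for the difference (3861) and 1624 to 5929 between the CBAP-expressing conditions (4497). In the shRNA set 414 higher and 994 lower genes became 830 and 826 under quantile normalization and 727 and 930 scaled to the median FPKM. Between the classes 24 and 47 became 105 and 96 under quantile normalization. Between the CBAP-expressing conditions 3277 and 1220 became 1961 and 1670, or 2159 and 1700 scaled to the median FPKM. Between the CBAP-deficient ones 4333 and 1695 became 2965 and 2638, or 2390 and 3285. For the difference 1774 and 2087 became 2820 and 1684 when scaled.

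Same-numbered replicates did not pair the libraries, with correlations of their deviations from -0.06 to 0.15. A replicate block gave 0 receptor genes between the classes, 1 in the shRNA set, 4 in the CRISPR set, 1 for the difference, 3 between the CBAP-expressing and 5 between the CBAP-deficient conditions, IL2RG being the gene lost in both of the last. Over all genes the block gave 11 calls between the classes (7 higher, 4 lower) and 776 in the shRNA set. In the shRNA set it left 0 calls among the partner chains (IL17RA and IL9R lost) and the negative regulators (SOCS3 lost), 0 higher and 1 lower among the IL-2, IL-4 and IL-7 targets (GATA3 lost) and 4 calls among the interferon-stimulated genes (5 without it).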
